A study of Mus musculus with 12 samples.

Results

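The genes of the cereblon ubiquitin ligase, which dTAG13 recruits to degrade its target, and the gene of endogenous FKBP12 were followed across 6 doses of dTAG13 in mouse embryonic stem (mES) cells. The members were taken by symbol: Crbn, Ddb1, Cul4a, Cul4b, Rbx1 and Fkbp1a. All 6 were found among the 24421 genes of the count table, and all 6 were among the 11378 genes tested, which had a mean of at least 1 RPKM (reads per kilobase of exon, scaled to library size) over the libraries. RNA-seq was performed on 12 libraries, with 2 libraries at each of 0, 0.3, 1, 3, 10 and 100 nM dTAG13. Every group was the same B6 Brg1 dTag knock-in mES cell line, kept in 2i+LIF medium and exposed to dTAG13 for 24 h. The 0 nM control libraries carry no treatment in the labels, and the study's methods describe 0 nM cells as given vehicle. The degron, FKBP12 with the F36V change, was thus present at the Brg1 locus in the control cells too, and an untagged line was not analysed here. The methods describe picking colonies grown from single cells, so clonal effects cannot be told apart from effects shared by mES cells.

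In the cell, CUL4A or CUL4B forms the scaffold of a ligase whose RING subunit RBX1 brings in the ubiquitin-conjugating enzyme, and whose adaptor DDB1 carries interchangeable substrate receptors. Cereblon, the product of Crbn, is the receptor that binds thalidomide and related drugs, and dTAG13 joins such a ligand to a ligand made for the F36V form of FKBP12, so that the tagged protein is brought to the ligase and ubiquitinated. FKBP12, the product of Fkbp1a, is a prolyl isomerase that binds the drugs FK506 and rapamycin and sits on type I receptors of the TGF-beta family and on ryanodine receptors. A question the dose series allows is whether transcripts of the degradation machinery itself moved with the dose of the degrader. In this line the dose also sets how much of the tagged protein, BRG1, is lost, as the paper measured by western blot. Exposure to the compound and loss of BRG1 therefore cannot be told apart here, for the members or for any gene below.

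A pair of coding stretches shows where the machinery and the compound meet. They were read from GENCODE transcripts on GRCm38 (mm10), 5′ to 3′ on the coding strand, and the capitals mark the codon named.
Fkbp1a: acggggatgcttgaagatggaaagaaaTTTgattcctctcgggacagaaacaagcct
Crbn: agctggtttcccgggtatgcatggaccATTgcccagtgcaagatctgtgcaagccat
The Fkbp1a codon encodes the phenylalanine that the F36V degron lacks. It is codon 37 when the first methionine is counted, lies in coding sequence of exon 3 on the plus strand of chromosome 2, and spans chr2:151557409-151557411. The endogenous protein keeps this phenylalanine, which is the basis of the selectivity of the degron ligand. The Crbn codon encodes an isoleucine of mouse cereblon, in coding sequence of exon 11 on the minus strand, at chr6:106781095-106781097. This is the position in the drug-binding domain at which mouse and human cereblon are known to differ and which limits the response of mouse cells to thalidomide-type drugs. Each stretch runs over a splice junction, and the codon itself lies within a single exon. These letters are the reference genome, since the deposited counts hold no read sequence.

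The genes are spread over 6 chromosomes. On mm10, Crbn spans chr6:106778245-106800087 on the minus strand, Ddb1 chr19:10605625-10629821 on the plus strand and Cul4a chr8:13105721-13147939 on the plus strand. Cul4b lies at chrX:38531621-38576196 on the minus strand, Rbx1 at chr15:81466316-81476369 on the plus strand and Fkbp1a at chr2:151542483-151561691 on the plus strand. In RefSeq promoters of GRCm38.p6, taken from 250 bases before to 50 bases after each start, all 6 members had a ratio of observed to expected CpG, with a lowest value of 0.665, above the median of 0.384 over 32841 promoters. The GC content of these windows ran from 52.3% for Cul4b to 71.0% for Cul4a, beside a median of 52.7% over all promoters. Reads of one gene can be lost or shared where another gene has the same sequence. Of the 75-base stretches of their transcripts, none of Cul4b and none of Fkbp1a occurred in the annotated transcripts of another gene, and 100 of the 4536 of Rbx1 did, all in the pseudogene Rbx1-ps. The share was 1.29% for Crbn, 2.72% for Cul4a and 2.87% for Ddb1. Crbn shares 680 bases of exon with Trnt1, which runs on the other strand, and the counting did not use the strand. The coding sequence of the degron was not used here, so whether read pairs from the tagged Brg1 transcript were counted as Fkbp1a was not tested.

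The libraries were similar in depth, with 4663484 to 6375582 counted read pairs each and a median of 5956669.5. Rn45s, a ribosomal RNA gene, took from 10.5% to 19.4% of a library. Of the 8 mES cell markers all 8 were tested, and their summed level ran from 1994 to 2193 RPKM. In all 3 rose and 3 fell at 100 nM, 75% of the 8, where 23.4% of all genes tested were called. Among them Nanog (log2 fold change of 0.52 at 100 nM against 0 nM), Tdgf1 (0.52) and Klf4 (0.28) rose. Dppa5a (-0.48), Pou5f1 (-0.17) and Esrrb (-0.17) fell. By the quasi-likelihood test of edgeR the adjusted p was 0.0301 for Pou5f1 and 0.0433 for Esrrb. These 2 calls were not recomputed under other settings. The paper, which limited its calls to changes over 1.5-fold, reports Pou5f1 as unchanged. The 6 primitive endoderm markers summed to 1.23 to 2.55 RPKM and the 7 fibroblast markers to 0.479 to 2.38 RPKM, and none of them reached the level for testing. Smarca4, the symbol of Brg1, was at 63.9 ± 0.503 RPKM (SD, n = 2) at 0 nM and 71.3 ± 0.0942 RPKM (SD, n = 2) at 100 nM, and since dTAG13 acts on the protein this level is no check of the labels. Its log2 fold change was 0.16 (adjusted p = 0.0389, quasi-likelihood test of edgeR, p adjusted by Benjamini-Hochberg over all genes tested), and the call was lost in the likelihood ratio test (adjusted p = 0.0955), in DESeq2 (adjusted p = 0.0515), without normalization factors (adjusted p = 0.0856) and without either library of 0, 1 or 100 nM (adjusted p of 0.0522 to 0.176). Without a filter on low values and with TMM factors over all genes the log2 fold change itself was 0.08 (adjusted p of 0.465 and 0.341). The labels do not say whether the libraries of a dose came from separate cultures, so p-values measure the spread between these libraries.

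The ligase genes were expressed at unequal levels, and their order was the same at every dose. Taken per length, Ddb1 stood highest with a median of 181 RPKM over the 12 libraries, above 97.0% of the genes tested. Cul4b followed at 78.5 RPKM, then Fkbp1a at 49.1 RPKM, Rbx1 at 20.6 RPKM, Cul4a at 16.6 RPKM and Crbn at 8.21 RPKM. Cereblon, the receptor that holds dTAG13, thus had the least abundant transcript of the group. By full exon length it stood below the median gene tested, which was at 9.34 RPKM. That length of 4053 bases includes 680 shared with Trnt1, and whether read pairs there went uncounted was not tested. The place of Crbn beside the median gene is therefore not settled. Each gene lay above the next in this order in 12 of 12 libraries. Only the ranges of Rbx1 and Cul4a overlapped in RPKM, and within a library Rbx1 was 1.08 to 1.34 times the level of Cul4a. This order rests on the exon lengths. In read pairs without regard to length, Cul4a, at 273 to 422 per library, stood above Rbx1, at 141 to 228. The range of Crbn, at 158 to 226, then overlapped that of Rbx1. Ddb1 exceeded Crbn 18.4- to 26.4-fold in level, with a median of 22.3-fold. DDB1 also serves the other receptors of this ligase family. Fkbp1a exceeded Crbn 5.06- to 7.40-fold, and it stood at 0.637 to 0.899 times the level of Smarca4, whose product carries the degron. In bulk RNA, fewer cells of a kind and less RNA per cell cannot be told apart.

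**Figure D1:**
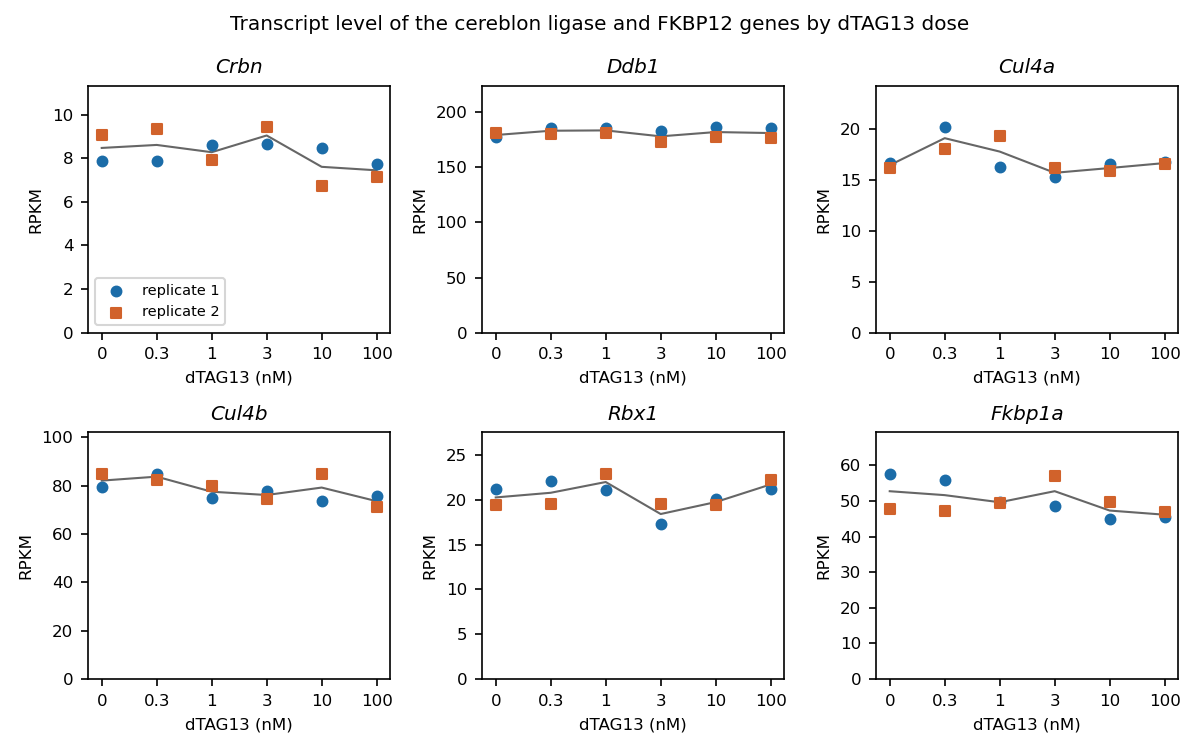
Level of each of the 6 genes in RPKM (y axis, from 0, a scale of its own for each gene) at each dTAG13 dose in nM (x axis, doses evenly spaced); circles and squares are the libraries of replicates 1 and 2 and the line joins the means of 2. Between the lowest and the highest of the 12 libraries the ratio of the highest to the lowest level was smallest for Ddb1, from 174 to 187 RPKM, and greatest for Crbn, from 6.74 to 9.43 RPKM.

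None of the 6 genes passed the test at any dose. By the quasi-likelihood test of edgeR, with p adjusted by Benjamini-Hochberg over all genes tested, 0 of 6 were called at 0.3 nM against 0 nM, where 0.0703% of all genes tested were called. The count was also 0 of 6 at 1 nM (2.29% of all genes), at 3 nM (9.40%), at 10 nM (17.9%) and at 100 nM (23.4%). At 100 nM, 1151 genes were called higher and 1511 lower over the whole table, and 802 higher and 2174 lower with TMM factors taken over all genes. With an added limit of a 1.5-fold change the count at 100 nM was 0 of 6 beside 11.2% of all genes. In the test for any difference between doses it was 0 of 6 beside 21.4%, and in the test of one slope over the dose order 0 of 6 beside 29.3%. At an unadjusted p under 0.05, Cul4a was reached at 0.3 nM (7.55% of all genes at that limit), Cul4b at 100 nM (34.5%) and Cul4b in the slope (39.5%), with 0 of 6 in the other comparisons against 0 nM. The likelihood ratio test and DESeq2 also called 0 of 6 in each of these tests.

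The intervals limit how large a change could have gone unseen. Over 6 genes and 5 doses, the log2 fold changes against 0 nM ran from -0.19 to 0.22. All 30 of the 95% intervals lay within a 1.5-fold change in either direction, with bounds of 0.728-fold and 1.34-fold, and 13 of the 30 lay within 1.2-fold. At 100 nM the median size of the log2 fold change of the 6 genes, without sign, was 0.129, beside 0.215 over all genes tested. At that dose both libraries of Crbn, Cul4b and Fkbp1a lay below both 0 nM libraries, and both of Rbx1 lay above. That makes 4 of 6 genes whose libraries did not overlap, where 61.7% of all genes tested did not overlap.

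**Figure D2:**
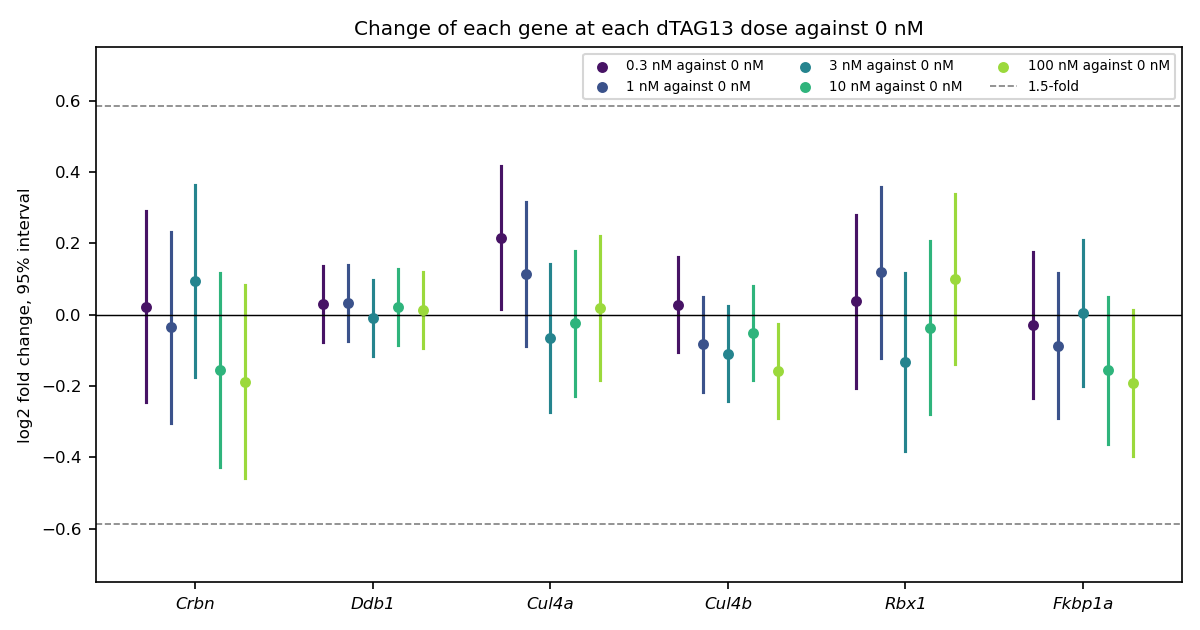
Fitted log2 fold change of each gene against 0 nM (points) with its 95% interval (vertical lines) at the 5 doses, coloured by dose; dashed lines mark a 1.5-fold change and the solid line no change. All 30 intervals lie between the dashed lines, and those of Cul4a at 0.3 nM and Cul4b at 100 nM leave out 0.

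Crbn encodes the receptor itself. Its level was 7.88 and 9.07 RPKM at 0 nM, 7.88 and 9.35 RPKM at 0.3 nM, 8.63 and 7.93 RPKM at 1 nM, 8.66 and 9.43 RPKM at 3 nM, 8.48 and 6.74 RPKM at 10 nM, and 7.76 and 7.14 RPKM at 100 nM. The highest library was at 3 nM and the lowest at 10 nM, and the doses overlapped from 0 to 10 nM. These levels rest on 158 to 226 read pairs per library, and counting alone gives a coefficient of variation of 7.17% at such counts, beside the 10.2% seen over the 12 libraries. The 100 nM mean was 87.9% of the control mean, a log2 fold change of -0.19 ± 0.131 (SE, adjusted p = 0.332). The interval of that change ran from 0.728-fold to 1.06-fold. Without 0 nM replicate 1 the change was -0.28 (adjusted p = 0.242) and without 0 nM replicate 2 it was -0.08 (adjusted p = 0.794). The slope was -0.04 per dose step (adjusted p = 0.233).

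Ddb1 encodes the adaptor between scaffold and receptor. Its level was 178 and 181 RPKM at 0 nM, 186 and 180 RPKM at 0.3 nM, 186 and 181 RPKM at 1 nM, 183 and 174 RPKM at 3 nM, 187 and 178 RPKM at 10 nM, and 186 and 177 RPKM at 100 nM. The libraries of 0 nM lay inside the range of those of 100 nM, and both libraries of 1 nM lay above both controls. At 1 nM, 44.8% of all genes tested did not overlap the controls. Over all 12 libraries the coefficient of variation was 2.35%, beside 1.51% from counting alone, and 0.141% of the genes tested varied less. Among the 103 genes with a mean count within 1.2-fold of that of Ddb1, 2.91% varied less and the median coefficient was 5.58%. The log2 fold change at 100 nM was 0.01 ± 0.0516 (SE, adjusted p = 0.884), and over the 5 doses the intervals stayed between 0.922-fold and 1.10-fold.

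Cul4a and Cul4b encode alternative scaffolds. Cul4a stood at 16.7 and 16.2 RPKM at 0 nM, 20.2 and 18.1 RPKM at 0.3 nM, 16.3 and 19.4 RPKM at 1 nM, 15.3 and 16.2 RPKM at 3 nM, 16.6 and 15.9 RPKM at 10 nM, and 16.8 and 16.6 RPKM at 100 nM. Both 0.3 nM libraries were above both control libraries, both 3 nM libraries were below them, and at 100 nM the groups overlapped. Of all genes tested, 38.2% did not overlap the controls at 0.3 nM and 49.7% did not at 3 nM. The log2 fold change was 0.22 ± 0.0971 (SE, adjusted p = 0.629) at 0.3 nM and 0.02 ± 0.0978 (SE, adjusted p = 0.922) at 100 nM.

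Cul4b stood at 79.5 and 84.6 RPKM at 0 nM, 84.9 and 82.4 RPKM at 0.3 nM, 74.9 and 80.0 RPKM at 1 nM, 77.5 and 74.6 RPKM at 3 nM, 73.7 and 84.6 RPKM at 10 nM, and 75.8 and 71.3 RPKM at 100 nM. The libraries of 3 nM and of 100 nM lay below both controls, and a library of 10 nM stood as high as the higher control. Of all genes tested, 49.7% did not overlap the controls at 3 nM and 61.7% did not at 100 nM. The log2 fold change at 100 nM was -0.16 ± 0.0641 (SE, adjusted p = 0.0775), with an interval from 0.818-fold to 0.982-fold. The slope was -0.03 per dose step (adjusted p = 0.054). Cul4b was the member nearest to the threshold, and it lay on either side of it by setting. At 100 nM it was called without 10 nM replicate 1 (adjusted p = 0.0348), without 10 nM replicate 2 (adjusted p = 0.0404), when only the libraries of 0 and 100 nM were fitted (adjusted p = 0.0253), with TMM factors over all genes (adjusted p = 0.00729) and without a filter on low values (adjusted p = 0.00112). Over the 22 other settings its adjusted p at 100 nM ran from 0.00112 to 0.449, and its direction was lower in 22 of 22. Its slope was called without 0 nM replicate 1 (adjusted p = 0.0428), without 1 nM replicate 1 (adjusted p = 0.0475), without 10 nM replicate 2 (adjusted p = 0.00687), without a filter (adjusted p = 0.00645) and with TMM factors over all genes (adjusted p = 0.00475), and was not called in its other settings. Without 0 nM replicate 2 the change at 100 nM was -0.11 (adjusted p = 0.389).

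Between the paralogues, Cul4b supplied most of the scaffold transcript. Cul4b was 4.13 to 5.33 times the level of Cul4a within a library. The share of Cul4a in the summed RPKM of both was 17.8% ± 1.19 (SD, n = 12), from 15.8% to 19.5%. By dose, the share was 16.7% ± 0.896 (SD, n = 2) at 0 nM and 18.5% ± 0.573 (SD, n = 2) at 100 nM, with means of 17.1% to 18.7% between them. Both libraries of 100 nM, at 18.1% and 18.9%, lay above both of 0 nM, at 17.4% and 16.1%. Those of 0.3 nM and 1 nM did so too, while those of 3 nM and 10 nM overlapped the controls. Of all genes tested, 38.2% did not overlap the controls at 0.3 nM, 44.8% at 1 nM and 61.7% at 100 nM. A difference in the share between doses was not tested. When read pairs were summed without regard to length the share was 13.4%, since the exons of Cul4b cover 5056 bases and those of Cul4a 3627 bases.

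**Figure D3:**
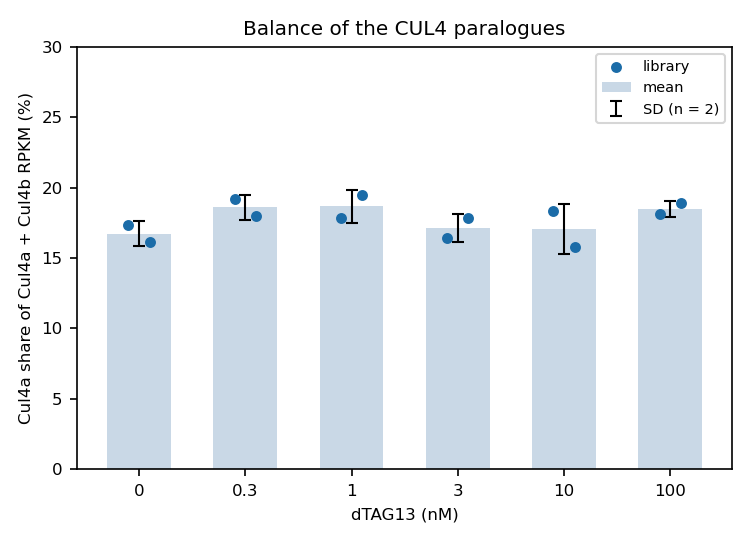
Share of Cul4a in the summed RPKM of Cul4a and Cul4b, in percent (y axis, from 0), at each dTAG13 dose in nM (x axis); bars are means of 2 libraries, error bars the SD and points the libraries. The 12 libraries lie between 15.8% and 19.5%.

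Rbx1 encodes the RING subunit, which some other cullins also use. Its level was 21.2 and 19.4 RPKM at 0 nM, 22.1 and 19.5 RPKM at 0.3 nM, 21.1 and 22.9 RPKM at 1 nM, 17.3 and 19.6 RPKM at 3 nM, 20.1 and 19.4 RPKM at 10 nM, and 21.2 and 22.2 RPKM at 100 nM. The lowest library was at 3 nM and the highest at 1 nM, and the libraries of 100 nM lay just above those of 0 nM. At 100 nM, 61.7% of all genes tested did not overlap the controls. The log2 fold change at 100 nM was 0.10 ± 0.116 (SE, adjusted p = 0.588), and the interval ran from 0.909-fold to 1.27-fold. With 141 to 228 read pairs per library, counting alone gives a coefficient of variation of 7.11%, beside 7.69% seen.

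Fkbp1a encodes the endogenous FKBP12 from which the degron was derived. Its level was 57.7 and 47.8 RPKM at 0 nM, 56.0 and 47.3 RPKM at 0.3 nM, 49.8 and 49.5 RPKM at 1 nM, 48.6 and 57.0 RPKM at 3 nM, 44.8 and 49.9 RPKM at 10 nM, and 45.4 and 46.9 RPKM at 100 nM. The controls differed from each other by more than either 100 nM library differed from the lower control. The 100 nM mean was 87.5% of the control mean, a log2 fold change of -0.19 ± 0.0994 (SE, adjusted p = 0.177) and an interval from 0.760-fold to 1.01-fold. The slope was -0.04 per dose step (adjusted p = 0.127), and without 0 nM replicate 2 it was called (-0.05, adjusted p = 0.0453), while without 0 nM replicate 1 it was -0.02 (adjusted p = 0.389). The size of the change at 100 nM rested on which control was kept, since it was -0.05 (adjusted p = 0.822) without 0 nM replicate 1 and -0.32 (adjusted p = 0.0565) without 0 nM replicate 2. With both controls it was called without a filter on low values (adjusted p = 0.0225) and with TMM factors over all genes (adjusted p = 0.0458), and under both of these the median gene tested shifted to -0.08 on the log2 scale.

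The library numbers in the labels run in one series for 0, 1, 10 and 100 nM and in another for 0.3 and 3 nM, so 3 nM was also compared with 0.3 nM. In that comparison 0 of 6 genes were called by edgeR, DESeq2 or the likelihood ratio test, beside 5.31% of all genes tested with edgeR's quasi-likelihood test. At an unadjusted p under 0.05, 2 of 6 were reached, Cul4a and Cul4b, beside 18.7% of all genes tested at that limit. For Cul4a the log2 fold change was -0.28 ± 0.0991 (SE, adjusted p = 0.105). For Cul4b it was -0.14 ± 0.0644 (SE, adjusted p = 0.249).

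Likeness between the members over the libraries varied in size and sign. Over the 12 libraries, Pearson's r of log2(RPKM + 1) between members was highest for Cul4a and Rbx1, at 0.671, and lowest for Crbn and Rbx1, at -0.425, with doses, depth and scaling shared by all points. Among the other 11377 genes tested, those most like each member were Ercc1 (r = 0.904) and Tsnax (0.889) for Crbn, and Zfp444 (0.884) and Jmjd7 (0.859) for Ddb1. For Cul4a they were Dnaja2 (0.905) and Btf3 (0.890), and for Cul4b 1810058I24Rik (0.919) and Gsk3b (0.911). Rbx1 was most like Wash1 (0.906) and Vdac3 (0.881), and Fkbp1a most like Xiap (0.912) and Gap43 (0.883). These are the highest of 11377 values each over 12 libraries.

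Around the core ligase, single pathway genes were called at 100 nM in both directions. Of 107 genes on 8 lists, 97 were tested, and 10 were called higher and 10 lower, which is 20.6% beside the 23.4% of all genes. Of the 23 substrate receptors and adaptors that share DDB1 and CUL4 with cereblon, 4 rose, 3 fell and 16 were not called, with a median log2 fold change of 0.02 beside 0.00 for all genes tested. Dcaf12 fell by 0.56 on the log2 scale (adjusted p = 0.000308), from 378 and 386 read pairs in the controls to 277 and 249. DCAF12 is a receptor of this ligase, as are the products of Dcaf4 and Wdtc1. Wdtc1 rose (0.34, adjusted p = 0.00106), from 692 and 664 read pairs to 877 and 865. Dcaf4 rose (0.46, adjusted p = 0.00183), but without 0 nM replicate 1 its adjusted p was 0.0765. Det1, which works with COP1 on this ligase, rose (0.66, adjusted p = 0.0291), from 53 and 53 read pairs to 72 and 98. Its adjusted p was 0.0892 without 0 nM replicate 1, 0.146 without 0 nM replicate 2 and 0.313 without 100 nM replicate 2.

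Genes that switch cullins on and off were also counted, where 23.4% of all genes tested were called. NEDD8 is attached to cullins to activate them, CAND1 exchanges receptors, and the COP9 signalosome removes NEDD8. Of the 13 neddylation and CAND genes, 1 was called, or 7.69% (median log2 fold change of -0.01). Dcun1d3, a neddylation cofactor, fell by 0.41 on the log2 scale (adjusted p = 0.0411), and without either 0 nM library or without 100 nM replicate 2 its adjusted p was 0.113 to 0.419. Of the 10 signalosome genes, 1 was called (median of -0.03). Cops5, the protease subunit, rose (0.29, adjusted p = 0.00956), with adjusted p of 0.0865 without 0 nM replicate 1 and 0.0575 without 100 nM replicate 2. Of the 7 ubiquitin-conjugating partners (median of 0.05), Ube2r2 alone was called (0.36, adjusted p = 0.017), and without any single library of 0 or 100 nM its adjusted p was 0.0546 to 0.112. The list of other cullin-RING genes held cullin scaffolds, the RING subunit gene Rnf7 and the adaptor genes Skp1a, Tceb1 and Tceb2. Of its 10 genes 9 were tested (median of 0.02) and 1 was called, or 11.1%. That gene, Tceb2, encodes elongin B, an adaptor in CUL2 and CUL5 ligases. It fell by 0.45 on the log2 scale (adjusted p = 4.6e-05). Tceb2 fell from 929 and 1106 read pairs in the controls to 744 and 766 at 100 nM, and 5.20% of its 75-base stretches occur in pseudogenes.

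The relatives of FKBP12 held larger changes than Fkbp1a. Of the 16 other FKBP genes 14 were tested, 1 rose, 3 fell and 10 were not called, with a median log2 fold change of -0.14. Those called make 28.6% of those tested, beside 23.4% of all genes tested. Fkbp10, an isomerase of the endoplasmic reticulum known for collagen folding, fell by 1.11 on the log2 scale (adjusted p = 0.000426), from 104 and 89 read pairs to 51 and 40. Fkbp6, known for its role in the male germ line, rose (0.89, adjusted p = 0.00137), from 49 and 74 read pairs to 114 and 118. Both changes were already called at 10 nM, at -0.61 for Fkbp10 (adjusted p = 0.0408) and 0.70 for Fkbp6 (adjusted p = 0.0173). Fkbp9 fell by 0.42 on the log2 scale (adjusted p = 0.000887), and Fkbp4, whose product is a co-chaperone of HSP90, fell by 0.29 (adjusted p = 0.000748). Of the 12 genes of FKBP12 partners 9 were tested (median of -0.01) and 1 was called, or 11.1%. That gene, Ryr1, a calcium release channel, rose (0.75, adjusted p = 0.000503), with 89 to 168 read pairs over its long transcript. Mtor, the kinase that FKBP12 binds with rapamycin, was at -0.01 (adjusted p = 0.951).

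Of the 16 genes of known cereblon substrates 12 were tested, 2 rose, 2 fell and 8 were not called, with a median log2 fold change of -0.03. The 4 called make 33.3% of those tested, beside 23.4% of all genes. Glul encodes glutamine synthetase, a natural substrate of cereblon. It rose from 470 and 509 read pairs in the controls to 613 and 667 at 3 nM, then 877 and 789 at 10 nM, with 756 and 770 in the 100 nM libraries. The fitted change, on the log2 scale, was 0.57 at 3 nM (adjusted p = 1.42e-05), 0.78 at 10 nM (adjusted p = 3.06e-08) and 0.62 at 100 nM (adjusted p = 7.3e-07). Of the stretches of Glul, 6.63% occur in other genes, pseudogenes among them. The other called genes encode proteins known as cereblon substrates when a drug is bound, a response that the isoleucine of mouse cereblon limits. Csnk1a1 fell by 0.33 on the log2 scale (adjusted p = 0.000577), and Sall4 fell by 0.24 (adjusted p = 0.00221) with an adjusted p of 0.0588 without 100 nM replicate 2. Rab28 rose (0.64, adjusted p = 0.0169), and without any single library of 0 or 100 nM its adjusted p was 0.0576 to 0.0944. Of the stretches of Sall4, 6.70% occur in another gene, Gm14261. Its call was also lost without normalization factors (-0.20, adjusted p = 0.125). Transcript levels do not show the amounts of the substrate proteins, which were not measured here.

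**Figure D4:**
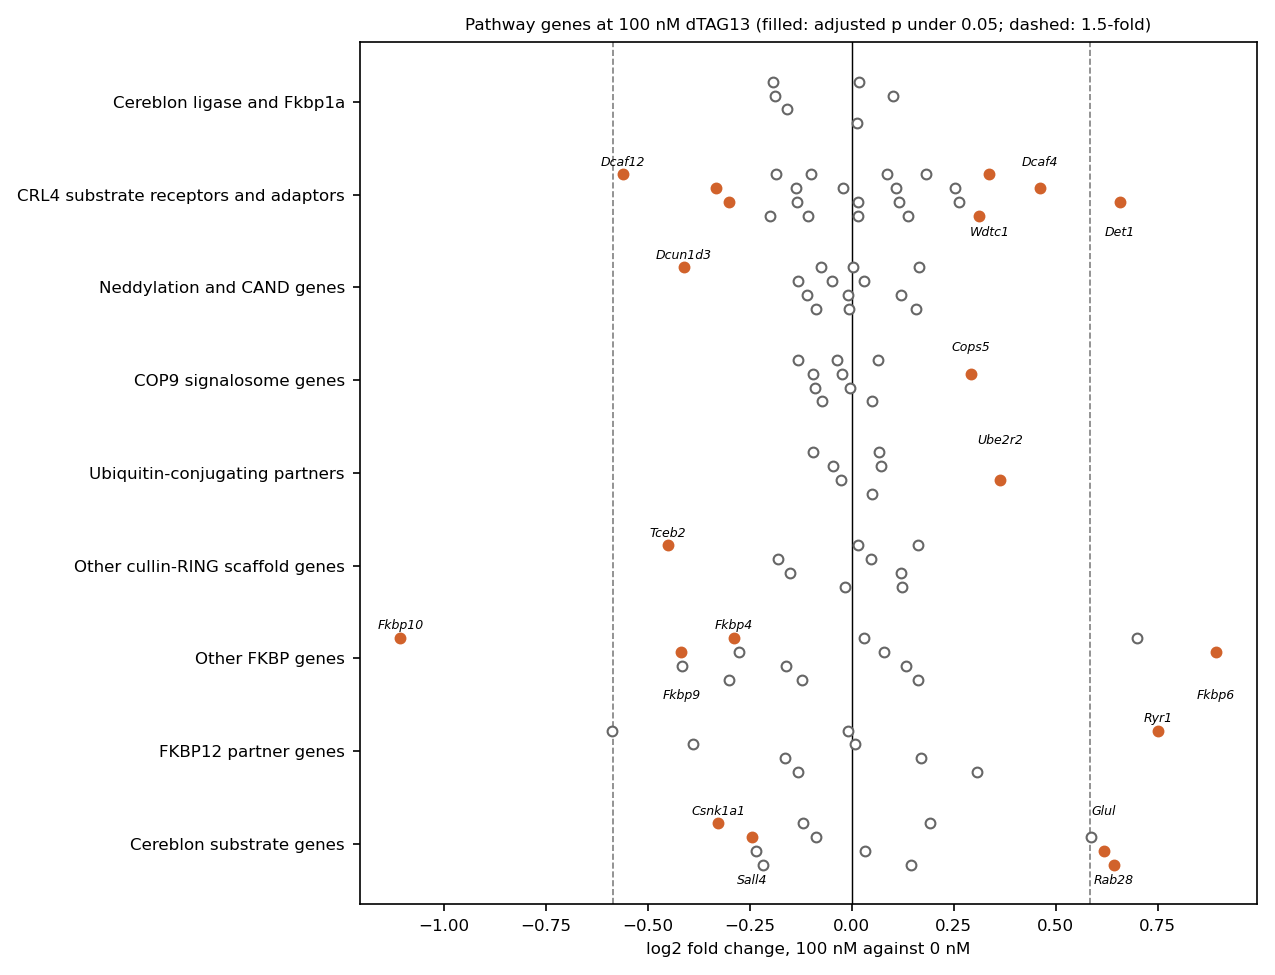
Log2 fold change at 100 nM against 0 nM (x axis) of the tested genes of each list (rows, the 6 genes of the cereblon ligase and FKBP12 on top); filled points have an adjusted p under 0.05, dashed lines mark a 1.5-fold change, and vertical offsets within a row only part the points. The top row has 0 filled points, and Fkbp10 at -1.11 and Fkbp6 at 0.89 lie farthest out.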

How the data were processed

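RNA-seq libraries were made by the authors with a stranded kit from total RNA and sequenced as read pairs. Per the labels, the paper's methods and the file headers, the authors trimmed reads with Trim Galore, aligned them to mm10 with HISAT2 and counted pairs on exons with featureCounts 2.0.1. The deposited values are raw counts per gene symbol, not normalized and without use of the strand. Groups were taken from the labels.

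From these counts, R 4.3.3 and edgeR 4.0.16 were used here. Genes were kept when their RPKM averaged 1 or more, TMM factors were computed on them, and the 12 libraries were fitted together with dose as a factor. The quasi-likelihood test was adjusted over all 11378 genes tested, and a call is an adjusted p under 0.05. Alternatives were the likelihood ratio test that the study used, DESeq2 1.42.0, other scalings, no filter, a replicate block and each library left out. RPKM use TMM library sizes and the exon lengths given with the counts. Scripts were tested on simulated data. Reads carry no molecular identifiers, so counting errors cover counting only. Genes named beyond the members were, per list, up to 4 with the largest change at 100 nM among those called, and the 2 most correlated with each member. Mtor, Pou5f1 and Esrrb were added after their values were seen. Members and lists were chosen with earlier results of these data known.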

Additional observations from a re-analysis of the deposited data

How the results depend on the processing

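The 8 counts of members called were recomputed under 172 alternatives, and 157 again gave 0. At 100 nM the count was 2 without a filter and with TMM factors over all genes (Cul4b and Fkbp1a), 1 with only the libraries compared, and 0 to 1 with a library left out. Over the dose order it was 2 without a filter and with TMM over all genes, and 0 to 1 with a library left out. Among any doses it was 1 without a filter and with TMM over all genes, and 0 to 1 with a library left out. For 3 nM against 0.3 nM it was 1 with TMM over all genes (Cul4a, adjusted p = 0.0465). Without a filter the TMM factors also came from all genes, so these settings share their scaling (Cul4b at 100 nM was at -0.239 in both). TMM over all genes was chosen after seeing the data, as were the alternatives for the pathway lists. The cause of the moves in these counts was not tested. Without a filter, 787 genes were called higher and 2118 lower at 100 nM, and without normalization factors 1153 and 1019. The 20 pathway genes called became 13 in DESeq2 and 11 to 21 with a library left out. The Cul4a share was 13.4% from counts without length, and by those counts Cul4a stood above Rbx1.

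Values near 0 changed sign. The log2 fold change at 100 nM of Ddb1 was -0.067 without a filter and with TMM over all genes, and from -0.0209 to 0.0488 with a library left out. That of Cul4a was -0.0624 under both and from -0.00335 to 0.0396 with a library left out. The slope of Ddb1 was -0.0166 under both, -0.0004 with the label set as a term and -0.00332 to 0.00344 with a library left out. That of Rbx1 was -0.0149 under both, -0.00382 with the label set as a term and -0.00965 to 0.00722 with a library left out.

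Equal replicate numbers did not pair the libraries: the correlation of deviations ran from -0.123 to 0.129 over 15 pairs of doses, with 1 above 0.1. With the replicate block the slope of Ddb1 was -0.000122, and 0 members were called in each test (adjusted p of Cul4b at 100 nM 0.0869).

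Crbn and Rbx1 had the lowest mean counts of the members, at 194 and 198 read pairs, and the widest intervals. Whether depth sets that width was not tested.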
